A study of Homo sapiens with 6 samples.

Results

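Kinesins are the motor proteins that use ATP to move along microtubules or to take them apart, and 42 of the 19892 genes in the deposited table are kinesin motor genes. They were chosen by name, as every gene whose whole symbol is KIF or KIFC followed by a number and at most 1 letter. The motor CENPE has another kind of symbol and was not chosen. RNA came from HEK293, an established line grown from human embryonic kidney, either wild type or with a CRISPR-Cas9 knockout of CNBP. No other treatment is named, and the labels do not say whether the knockout cells are 1 clone. The CNBP protein binds single-stranded nucleic acids through its CCHC zinc fingers, and the title of the study concerns its binding to G-rich coding sequence and translation. Each group had 3 libraries, but the authors' table gives 1 FPKM value (fragments per kilobase of transcript, scaled to the mapped fragments) per gene and group. No difference below could therefore be set against the spread between libraries, and none carries an error or a p-value. The depth of the libraries is unknown.

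Different kinesins do very different work. Some build the mitotic spindle, move chromosomes and complete cell division, and their mRNAs are made mostly in dividing cells. Others carry vesicles, organelles and ciliary components through cells at all times, and several of these are best known from neurons. The members were placed in 3 classes by known role, with 14 mitotic genes, 15 transport genes and 13 genes of cilia, signalling and microtubule ends. These classes and the partner lists below were set with earlier results of these data known.

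The check of the knocked-out gene was uninformative. CNBP had 202 FPKM in wild type and 214 FPKM in knockout, a log2 ratio of 0.09. A frameshift made by Cas9 may leave mRNA levels as they were, so all directions rest on the labels of the value columns. Ratios are log2 of the knockout over the wild-type value. Genes were compared where either value was at least 1 FPKM and both were above 0, which held for 13219 genes and for 36 of the 42 kinesins. The median log2 ratio of all compared genes was -0.01. No gene marks HEK293 as such, and no marker check of the cell line was made.

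Kinesin mRNAs covered a wide range of levels, and the most abundant came from all 3 classes. KIF2A, which depolymerises microtubules at spindle poles and in neurons, stood first with 103 FPKM in wild type and 112 FPKM in knockout. It was placed in the third class, whose next member by level, KIF21A, had rank 15. KIF5B, the widely expressed heavy chain of conventional kinesin, followed with 95.2 and 97.0 FPKM. KIF23, the motor of the centralspindlin complex of the division midzone, had 85.8 and 92.1 FPKM, and the chromosome-binding motor KIF22 had 62.4 and 61.4 FPKM. The median level of compared members was 36.7 FPKM for the mitotic class, 14.2 FPKM for the transport class and 6.44 FPKM for the third class. Summed over members, the mitotic class had 462 FPKM in wild type and 509 FPKM in knockout, while the transport class had 371 and 354 FPKM. The mitotic sum, which leaves out KIF2A, was thus 1.24 times the transport sum in wild type and 1.44 times in knockout.

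**Figure D1:**
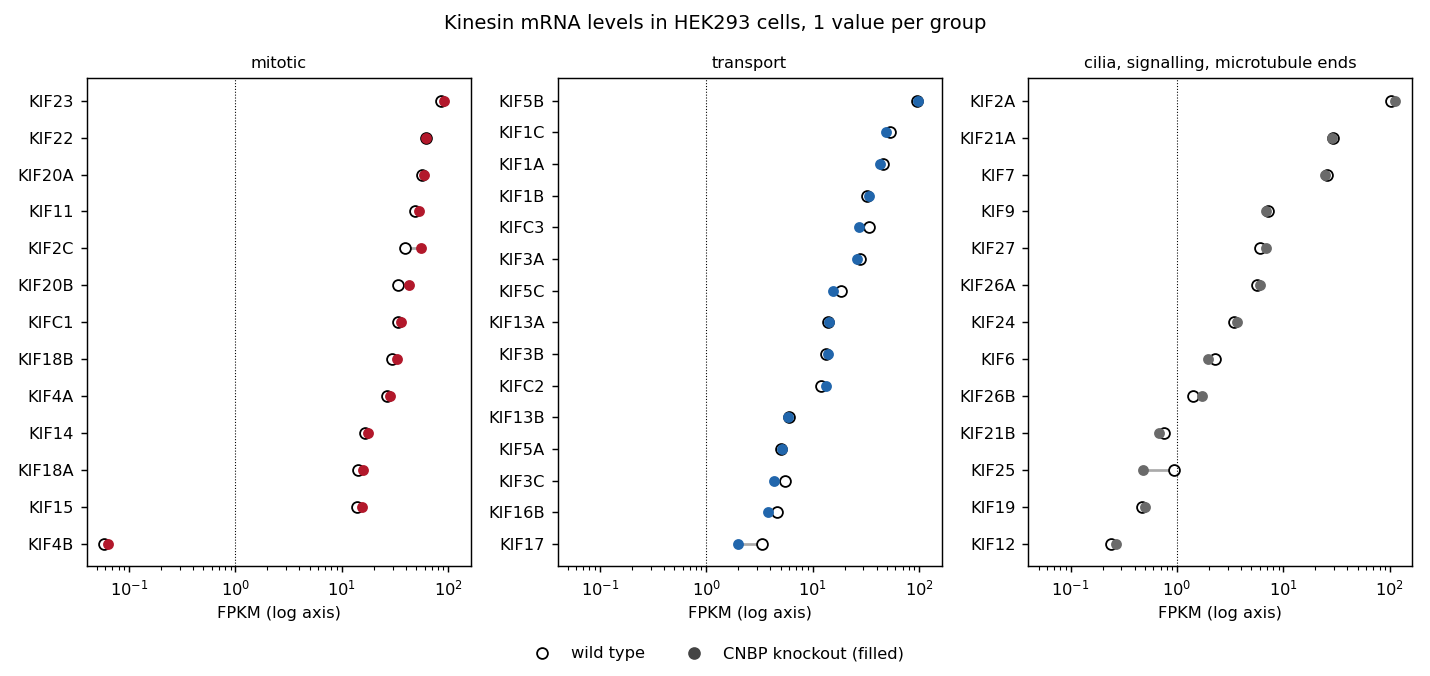
Level of each kinesin in FPKM on a log axis, with open circles for wild type, filled circles for CNBP knockout and 1 panel per class. A dotted line marks 1 FPKM. KIF2B is at 0 in both groups and is not drawn, and in most rows the circles lie close together, with KIF17, KIF25 and KIF2C showing the widest gaps.

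The low end held 6 members that could not be compared. KIF2B was listed at 0 FPKM in both groups. KIF4B had 0.0585 and 0.0632 FPKM, KIF12 had 0.238 and 0.27 FPKM, and KIF19, which controls the length of motile cilia, had 0.471 and 0.498 FPKM. KIF21B had 0.757 FPKM in wild type and 0.68 FPKM in knockout. KIF25 had 0.94 and 0.474 FPKM, a log2 ratio of -0.99 at a level where ratios of single genes scatter widely. These 6 genes enter no count below.

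At a fold of 1.5 or more, 1 of the 36 compared kinesins was lower in the knockout column and none was higher, so 1 was called in either direction. The background for this count was 4.27% of all compared genes in either direction, 2.78% lower and 1.48% higher. At 1.2-fold, 3 kinesins were higher and 4 lower, where 21.8% of all genes were beyond that fold, 8.62% higher and 13.2% lower. The other 29 kinesins lay within 1.2-fold. The family as a whole was therefore close to the background of the table, and the account below concerns small differences. Of the 36, 34 lay inside the central 95% of genes in their band of mean level (bands of 1 to 5, 5 to 20, 20 to 50, and 50 FPKM and more). That is about the share of genes that the central 95% holds by construction. The 2 outside it were KIF2C and KIF20B, both mitotic and both higher in the knockout column.

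**Figure D2:**
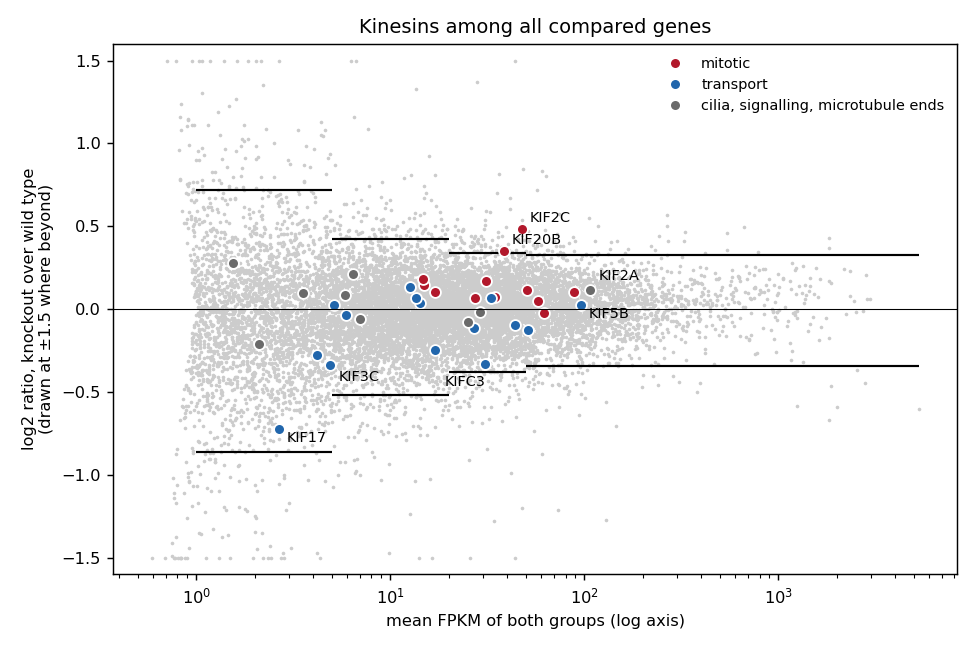
Log2 ratio of knockout over wild type against the mean FPKM of both groups on a log axis, for all 13219 compared genes (grey) and 36 kinesins (coloured by class). Black lines bound the central 95% of genes in each band of level, and KIF2C and KIF20B lie above the upper line while KIF17 lies inside its wider band.

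The mitotic kinesins were mostly a little higher in the knockout column. Of 12 compared members, 11 had a log2 ratio above 0, where 48.7% of all compared genes did, and their median was 0.11 (1.08-fold). None reached 1.5-fold, where 4.27% of all compared genes did. At the levels of these members such folds were rarer. Of 9406 genes with a mean from 5 to 120 FPKM, 43 were higher and 97 lower by 1.5-fold, so a lack of calls says little here. By at least 1.2-fold, 2 were higher and none lower, where 8.62% of all compared genes were higher and 13.2% lower. The members were measured in the same libraries and may move together, so this is not a count of independent observations. In RNA of whole cultures, more cells in a phase of the cell cycle and more mRNA per cell cannot be told apart.

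KIF2C (ENSG00000142945), which depolymerises microtubules at centromeres and corrects wrong attachments of chromosomes, had 39.7 FPKM in wild type and 55.5 FPKM in knockout cells. This 1.4-fold difference (log2 ratio 0.48) was the highest of the family and lay at the 99.5th percentile of genes from 20 to 50 FPKM. KIF20B (ENSG00000138182), a kinesin-6 motor of late cytokinesis, had 33.9 and 43.3 FPKM, a log2 ratio of 0.35 at the 98.0th percentile of the same band. The remaining mitotic members differed by less.

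Motors that push the spindle poles apart were slightly higher in knockout. KIF11, the tetrameric motor that slides antiparallel microtubules, had 48.6 and 52.7 FPKM (log2 ratio 0.12). KIF15, which can stand in for KIF11, had 13.8 and 15.6 FPKM (0.18). KIFC1 works in the opposite sense, towards microtubule minus ends, and had 34.0 and 35.7 FPKM (0.07). Kinesin-8 motors limit microtubule growth and chromosome movement at the spindle's centre, and both compared members were above 0. KIF18A had 14.2 and 15.7 FPKM (0.15) and KIF18B had 29.3 and 33.0 FPKM (0.17). KIF18A shares 61 exon bases with METTL15 on the opposite strand. Whether the authors counted by strand was not known for these or the other overlaps given below.

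Other motors of cytokinesis and of chromosome arms had log2 ratios from -0.02 to 0.10. KIF20A, which brings the chromosomal passenger complex to the midzone, had 56.7 and 58.7 FPKM (log2 ratio 0.05). Its exons share 132 bases with BRD8 and 68 with CDC23 on the opposite strand. KIF23 had a log2 ratio of 0.10, and KIF14, which acts with citron kinase in cytokinesis, had 16.4 and 17.7 FPKM (0.10). The 20 nearest genes of KIF14 had a median of -0.15, and its value with that taken off was 0.25. KIF4A, which binds chromosomes and sets the length of midzone microtubules, had 26.9 and 28.1 FPKM (0.06), and it shares 77 exon bases with PDZD11 on the opposite strand. KIF22 was the member below 0, with a log2 ratio of -0.02. It lies on chromosome 16, whose compared genes had a median of -0.12, and with the median of its 20 nearest genes taken off its value was 0.04.

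The transport kinesins lay on both sides of 0, with a tail below it. Of 15 members, all compared, 9 had a log2 ratio below 0, where 51.3% of all compared genes did, and the median was -0.09 (0.937 of the wild-type value). Of the 15, 4 were lower by at least 1.2-fold and none was higher by that much. Over all compared genes, 13.2% were lower and 8.62% higher by that fold. The 4 were KIF17, KIF3C, KIFC3 and KIF16B. Among genes with a mean from 1 to 5 FPKM, KIF3C lay at percentile 20.5 and KIF16B at percentile 24.5. KIF17 (ENSG00000117245), a homodimeric kinesin-2 motor of cilia and dendrites, had the lowest ratio of the compared kinesins. It went from 3.31 FPKM in wild-type cells to 2.01 FPKM in the knockout column, 1.65-fold lower (log2 ratio -0.72). At this low level that ratio lay at percentile 4.42 of genes from 1 to 5 FPKM, and with a pseudocount of 1 it was -0.52, below 1.5-fold.

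Kinesin-2 carries cargo into cilia as a trimer of KIF3A, KIF3B and the non-motor subunit KIFAP3. The trimer's subunits differed little and not in the same direction. KIF3A had 28.2 and 26.0 FPKM (log2 ratio -0.12), KIF3B had 13.3 and 13.9 FPKM (0.06), and KIFAP3 had 20.5 and 21.9 FPKM (0.09). KIF3C, an alternative partner of KIF3A, had 5.49 and 4.35 FPKM (-0.34). Its 20 nearest genes had a median of -0.12, and its value with that taken off was -0.22. KIF3A exceeded KIF3B 2.12-fold in wild type and 1.87-fold in knockout.

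The kinesin-1 heavy chains showed an order of level that was the same in both columns, KIF5B above KIF5C above KIF5A. KIF5B had a log2 ratio of 0.03 and made up 80.2% of the summed kinesin-1 FPKM in wild type and 82.4% in knockout. KIF5C, enriched in neurons, had 18.4 and 15.5 FPKM (-0.25). KIF5A, known for its role in motor neurons, had 5.09 and 5.18 FPKM (0.02).

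Among kinesin-3 motors, which carry vesicles over long distances, most values were close. KIF1A, the motor of synaptic vesicle precursors, had 45.5 and 42.6 FPKM (log2 ratio -0.09), KIF1B had 32.2 and 33.7 FPKM (0.07), and KIF1C had 53.7 and 49.2 FPKM (-0.12). KIF13A, a motor of endosomal cargo, had 13.99 and 14.3 FPKM (0.04), and KIF13B had 6.01 and 5.85 FPKM (-0.04). With its neighbours' median of -0.12 taken off, KIF13A stood at 0.16. KIF16B, which moves early endosomes, was lower, with 4.59 and 3.78 FPKM (-0.28).

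The minus-end motors of the transport class went opposite ways. KIFC3 had 34.2 FPKM in wild type and 27.2 FPKM in knockout, a log2 ratio of -0.33. Its neighbours on chromosome 16 had the same shift, with a median of -0.32 over the 20 nearest genes, and KIFC3 stood at -0.01 once that was taken off. KIFC2 had 12.04 and 13.2 FPKM (0.14), or 0.03 with its neighbours' median taken off. It shares 791 exon bases with FOXH1 on the opposite strand.

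**Figure D3:**
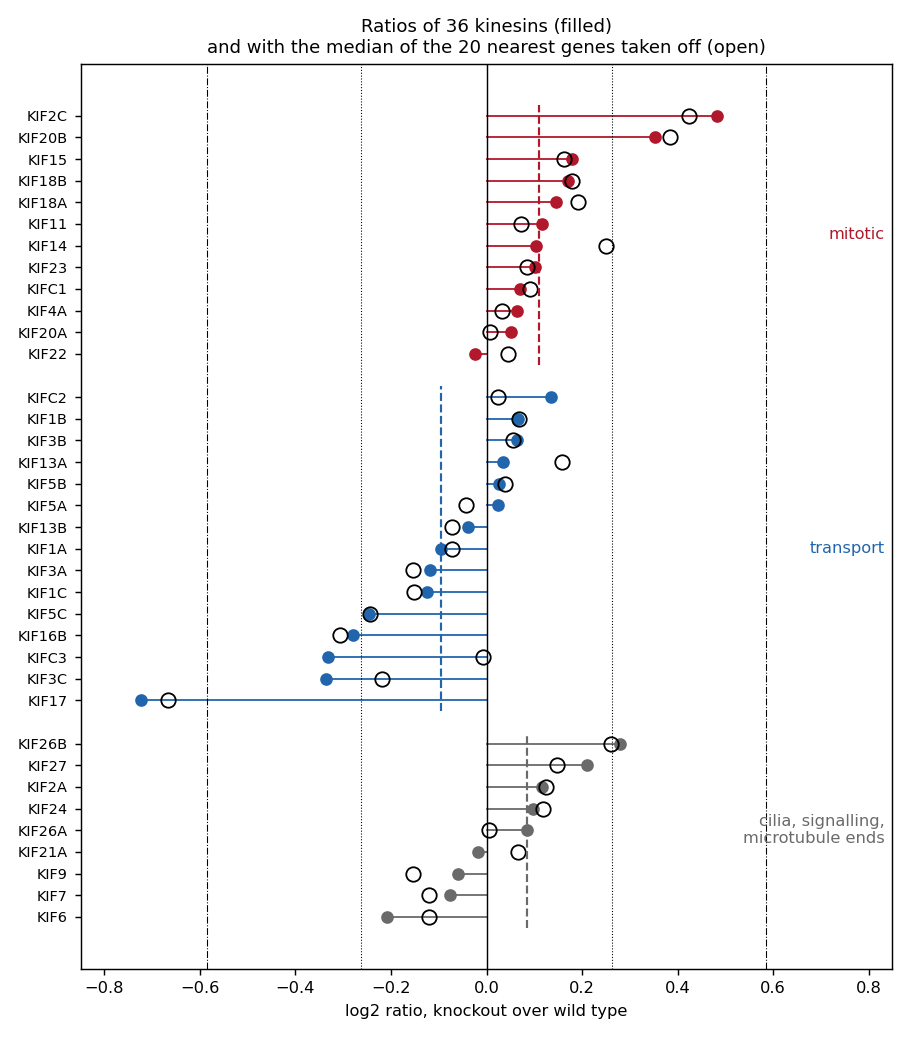
Log2 ratio of knockout over wild type for the 36 compared kinesins by class (filled circles) and after removal of the median of their 20 nearest genes (open circles). Dashed lines are class medians (0.11, -0.09 and 0.08 from top to bottom), and dotted and dash-dotted lines mark 1.2-fold and 1.5-fold. KIFC3 moves from -0.33 to -0.01.

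Kinesins of cilia, signalling and microtubule ends had a median log2 ratio of 0.08 over 9 compared members, 5 above 0 and 4 below. Of all compared genes, 48.7% were above 0. KIF26B, an atypical member with a role in signalling, was 1.21-fold higher from a low level, with 1.4 and 1.7 FPKM, and with a pseudocount of 1 its log2 ratio was 0.17. Its relative KIF26A had 5.66 and 6.0 FPKM (log2 ratio 0.08). KIF7, which acts in Hedgehog signalling at the tip of the cilium, had 25.9 and 24.6 FPKM (-0.08), and its relative KIF27 had 5.97 and 6.91 FPKM (0.21). Exon overlap and copies touch both of these values. KIF7 shares 589 exon bases with TICRR on the opposite strand, and 32.8% of the 50-base words of the KIF27 coding sequence also occur in transcripts of other genes. KIF21A, which restrains microtubule growth at the cell cortex, had 29.2 and 28.8 FPKM (-0.02). KIF2A had a log2 ratio of 0.12, and it shares 428 exon bases with IPO11 on the same strand. KIF24, which acts at centrioles in cilium formation, had 3.45 and 3.69 FPKM (0.10) and overlaps UBAP1. KIF9, found in motile cilia, had 7.15 and 6.86 FPKM (-0.06) and overlaps KLHL18. KIF6 had 2.25 and 1.95 FPKM (-0.21).

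Set side by side, the mitotic and transport classes had medians 0.20 apart on the log2 scale (1.15-fold). Their ranges overlapped from -0.02 to 0.14. Of 15 transport kinesins, 6 lay above KIF22, the lowest mitotic one, and 5 of 12 mitotic kinesins lay above every transport kinesin. No test of this difference can be made with 1 value per group, and the classes were set with earlier results of these data known. The gap depended on the low members of the transport class. Among genes with a mean from 5 to 120 FPKM, a range chosen after the values were seen, the transport median was -0.01 over 12 genes, the mitotic median stayed at 0.11 over 12, and the gap was 0.12.

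The spindle and cytokinesis proteins that work with the mitotic kinesins stood near them. Of 34 such genes, 27 (79.4%) had a log2 ratio above 0, where 48.7% of all compared genes did, and the median was 0.10. They were read from the same value columns as the mitotic kinesins, so their count is not a separate observation. None reached 1.5-fold, where 4.27% of all compared genes did. All 34 had a mean of at least 20 FPKM, where such folds were rarer. From 20 to 50 FPKM, 10 of 3371 genes were higher and 19 lower by that fold, and from 50 FPKM, 3 and 12 of 2528. ECT2, the exchange factor that centralspindlin activates, was highest with 57.4 and 70.3 FPKM (log2 ratio 0.29). Its neighbourhood on chromosome 3 was shifted too, with a median of 0.21, which left 0.08. NDC80, a microtubule-binding kinetochore subunit, had 51.4 and 61.4 FPKM (0.25). At the other end were SPC24, also of the kinetochore, with 51.1 and 46.4 FPKM (-0.14), and citron kinase, CIT, with 41.8 and 39.4 FPKM (-0.09). PRC1, which bundles midzone microtubules and recruits KIF4A, was the most abundant, with 288 and 289 FPKM (0.01). CENPE, the kinesin-7 motor that moves chromosomes to the spindle's centre, had 61.7 and 59.9 FPKM (-0.04). Partners of single motors did not always share the motor's value. The centralspindlin subunit RACGAP1 had a log2 ratio of -0.01 beside 0.10 for KIF23, and AURKB, the kinase that controls KIF2C, had -0.01 beside 0.48.

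Among cargo adaptors and in the opposing motor, no gene reached 1.5-fold, where 4.27% of all compared genes did. Most of these genes were above 5 FPKM, where such folds were rarer. Of 9406 genes with a mean from 5 to 120 FPKM, 43 were higher and 97 lower by 1.5-fold. Kinesin light chains, adaptors and cofactors had a median of -0.04 over 18 genes, 8 above 0 and 10 below. At 1.2-fold, 2 were higher and 3 lower, where 8.62% of all compared genes were higher and 13.2% lower. The values ran from -0.37 to 0.48. MAPK8IP1, a scaffold that links kinesin-1 to cargo, was highest with 3.16 and 4.41 FPKM (log2 ratio 0.48), followed by its relative MAPK8IP2 with 12.8 and 15.4 FPKM (0.27). Lowest were the microtubule-binding kinesin-1 cofactor MAP7, with 13.7 and 10.6 FPKM (-0.37), and its relative MAP7D2, with 7.39 and 5.84 FPKM (-0.34). KLC1, the most abundant light chain, had 102 and 93.8 FPKM (-0.13). Cytoplasmic dynein and dynactin, the minus-end transport machinery, had a median of -0.07 over 28 genes, 10 above 0 and 18 (64.3%) below, where 51.3% of all compared genes were below. At 1.2-fold, 2 were lower and none higher, beside the same 13.2% and 8.62% of all compared genes. The highest were DYNC1LI1 (0.22) and PAFAH1B1 (0.14), and the lowest were DYNC2LI1 (-0.28) and DCTN5 (-0.27). DCTN5 lies on chromosome 16, and its value was -0.10 with the neighbours' median taken off. DYNLL1, the most abundant, had 208 and 213 FPKM (0.03).

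Most promoters of the mitotic kinesins share letters that occurred in the transport kinesins at about the share of all compared genes. Many genes of mitosis carry a cell cycle genes homology region (CHR), bound by MuvB complexes that keep them off in resting cells and on before mitosis, and a CCAAT box, bound by NF-Y. The RefSeq promoter windows (build GRCh38.p14, 250 bases before to 50 after each annotated start) were searched on both strands for TTTGAA or TTCGAA as the CHR and for CCAAT. Windows were found for 34 of the 42 kinesins. KIF5A, KIF13B, KIFC2, KIFC3, KIF19, KIF21B, KIF26B and KIF27 had none. The CHR letters occurred in 11 of 14 mitotic kinesins, 1 of 11 transport kinesins (KIF5B) and 1 of 9 others (KIF24), against 15.6% of compared genes. CCAAT occurred in 11 of 14, 4 of 11 and 3 of 9, against 43.4%. Among genes with a single window, so that several starts could not add matches, CHR letters occurred in 10 of 13 mitotic and 1 of 8 transport kinesins and in 10.8% of compared genes. Both motifs were found in 10 of the 14 mitotic kinesins and in 6.49% of compared genes. The spindle and cytokinesis partners were alike, with CHR letters in 21 of 28. The matches of the 11 mitotic kinesins lay close to the start, with the first letter of the nearest one between -55 and +25. The 5 windows below show the forms found, on the strand given, with CHR and CCAAT matches in capitals. KIF11 carries the CHR as TTCAAA, its form on the other strand, KIF22 as TTCGAA and KIF4A as TTTGAA. KIF2C, the kinesin with the highest ratio, has no match of either kind in its window.
KIF11, chr10:92592880-92593179, + strand: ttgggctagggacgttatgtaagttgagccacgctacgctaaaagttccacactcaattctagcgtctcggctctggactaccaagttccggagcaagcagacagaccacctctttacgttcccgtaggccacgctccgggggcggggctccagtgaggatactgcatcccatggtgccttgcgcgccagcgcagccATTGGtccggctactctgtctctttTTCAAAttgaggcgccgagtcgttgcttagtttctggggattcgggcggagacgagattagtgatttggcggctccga
KIF22, chr16:29790501-29790800, + strand: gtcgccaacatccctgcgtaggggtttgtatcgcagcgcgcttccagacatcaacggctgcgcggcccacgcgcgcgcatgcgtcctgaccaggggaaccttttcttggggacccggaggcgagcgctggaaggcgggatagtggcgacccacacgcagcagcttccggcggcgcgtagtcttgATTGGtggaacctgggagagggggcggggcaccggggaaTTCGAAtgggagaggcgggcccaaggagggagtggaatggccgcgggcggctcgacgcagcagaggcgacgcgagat
KIF4A, chrX:70289854-70290153, + strand: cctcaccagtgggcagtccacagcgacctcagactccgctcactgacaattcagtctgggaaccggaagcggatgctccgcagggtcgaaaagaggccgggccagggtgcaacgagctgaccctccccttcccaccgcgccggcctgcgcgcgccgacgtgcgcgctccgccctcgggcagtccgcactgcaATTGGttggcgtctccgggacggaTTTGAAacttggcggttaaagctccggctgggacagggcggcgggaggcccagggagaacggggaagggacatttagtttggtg
KIF4B, chr5:155013505-155013804, + strand: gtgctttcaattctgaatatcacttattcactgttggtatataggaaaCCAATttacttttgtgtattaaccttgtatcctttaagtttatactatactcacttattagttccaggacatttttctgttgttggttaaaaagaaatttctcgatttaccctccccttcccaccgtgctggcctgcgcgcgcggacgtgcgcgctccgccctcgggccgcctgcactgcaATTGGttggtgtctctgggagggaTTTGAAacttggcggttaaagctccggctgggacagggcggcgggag
KIF2C, chr1:44739587-44739886, + strand: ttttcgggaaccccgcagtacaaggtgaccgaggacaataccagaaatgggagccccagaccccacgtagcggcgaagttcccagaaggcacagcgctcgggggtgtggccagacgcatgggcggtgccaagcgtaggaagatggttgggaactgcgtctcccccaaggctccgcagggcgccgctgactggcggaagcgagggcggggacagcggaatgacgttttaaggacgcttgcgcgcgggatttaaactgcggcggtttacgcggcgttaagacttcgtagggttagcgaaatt
Of the 12 compared mitotic kinesins, KIF2C (log2 ratio 0.48) and KIF20A (0.05) lacked the CHR letters searched for. Other forms of the CHR were not searched, so a lack of these letters does not show that no such element is there. The 10 with them ran from KIF22 (-0.02) to KIF20B (0.35). KIF20A had CCAAT, while KIF15 had the CHR and no CCAAT. A match is a run of letters and not a shown binding site.

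KIF4B is an intronless copy of KIF4A on another chromosome, and its window still holds the KIF4A promoter letters. Over 144 bases, -131 to +13 from the KIF4A start and -94 to +50 from the KIF4B start, 135 (93.8%) were identical. The stretch includes the CCAAT box and the CHR, 24 bases apart in both, so these members share a sequence and are not separate cases of it. Their listed levels nevertheless differed 459-fold in wild type, 26.9 FPKM against 0.0585 FPKM. Of the 50-base words of the KIF4B coding sequence, 13.4% occur in KIF4A, so most of it can be told apart at that length.

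**Figure D4:**
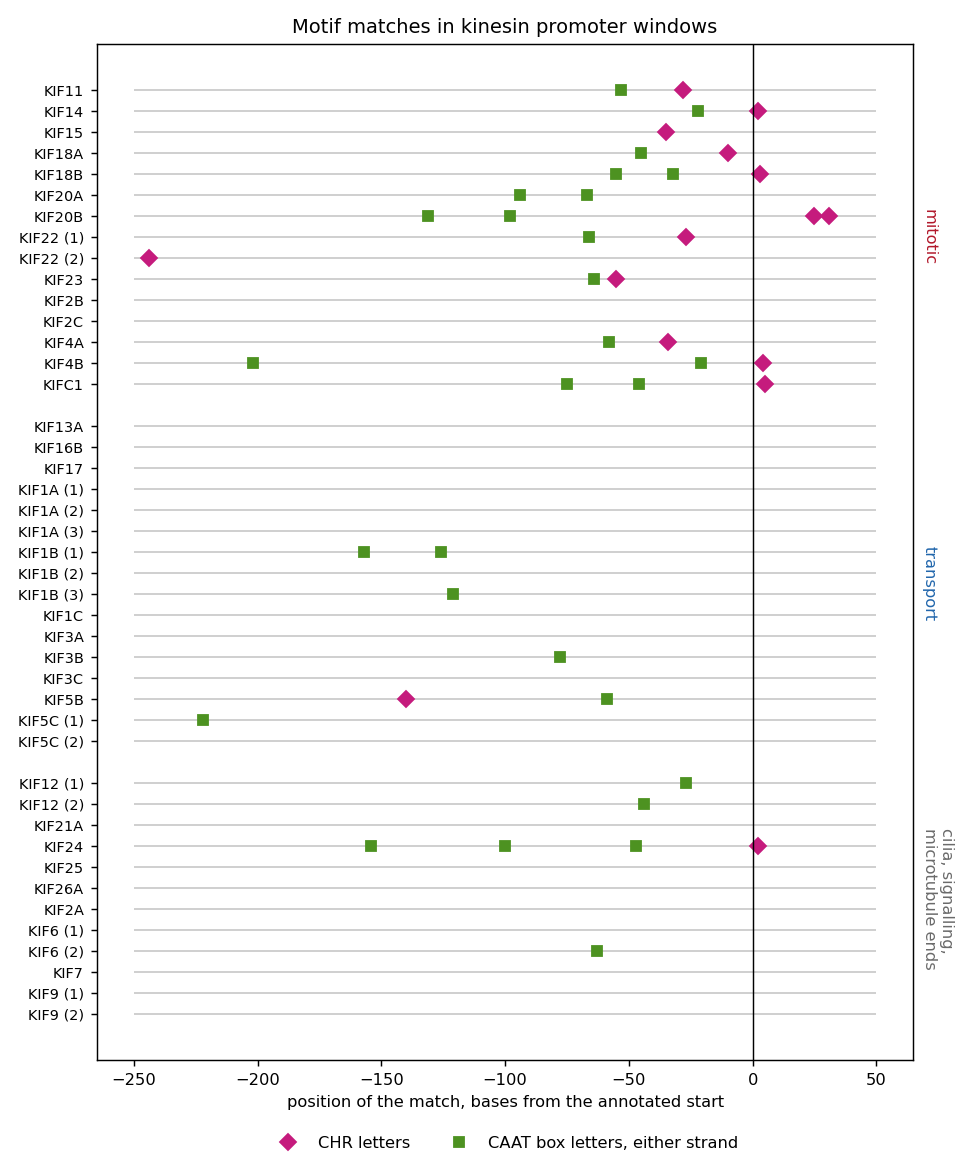
Position of CHR letters (diamonds) and CAAT boxes (squares) in the promoter windows of 34 kinesins, in bases from the annotated start, with 1 row per window and a number in brackets where a gene has several. Diamonds cluster near the start in the mitotic rows, and the transport rows hold 1.

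G-rich coding sequence is the subject of the study's title, and kinesins differ widely in it. The longest coding sequence of each kinesin in GENCODE release 29 was searched for TGGAG, on the coding strand. The density ran from 0.549 matches per kb in KIF20B to 7.57 in KIF3C, with a median of 3.05 in the compared mitotic class and 5.0 in the transport class, against 2.83 over all compared genes. The densest 90-base stretches of KIF5C, KIF3C and KIF17 are shown with the motif in capitals as examples. They were chosen after the values were seen, as transport kinesins with a high density and a ratio below 0, and hold 5, 4 and 3 matches. Stretches with as many occur in kinesins that were not lower, with 5 in KIF26B (log2 ratio 0.28), 4 in KIF26A (0.08) and 3 in KIF15 (0.18), KIFC2 (0.14) and KIF1B (0.07).
KIF5C: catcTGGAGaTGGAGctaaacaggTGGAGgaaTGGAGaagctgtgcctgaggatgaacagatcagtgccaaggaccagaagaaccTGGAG
KIF3C: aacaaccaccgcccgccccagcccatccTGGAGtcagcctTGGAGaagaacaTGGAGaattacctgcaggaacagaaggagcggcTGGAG
KIF17: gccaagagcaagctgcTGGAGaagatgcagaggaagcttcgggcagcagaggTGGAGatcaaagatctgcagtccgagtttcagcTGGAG
These stretches start at coding bases 1084, 1318 and 2428. Across the 36 compared kinesins, Spearman's rho between log2 ratio and motif density was -0.44, and without KIF17 it was -0.39. Over the 30 with a mean of at least 5 FPKM it was -0.36. Within classes it was -0.13 over the 12 mitotic, -0.61 over the 15 transport and 0.05 over the 9 other kinesins. Over 13180 compared genes with a coding sequence it was -0.02. The points are genes of the same libraries, and their ratios are those before the neighbours' medians are taken off. With these taken off, KIFC3 stood at -0.01, KIF3C at -0.22, KIF5C at -0.24, KIF16B at -0.31 and KIF17 at -0.67. A rho with such values was not computed. Density goes with the percentage of G in these coding sequences (rho 0.75). That percentage had a rho of -0.40 with the ratio, and -0.47 over the 30 kinesins with a mean of at least 5 FPKM. In the transport class, mean FPKM had a rho of 0.31 with the ratio and -0.34 with density. KIF2C, with 4.14 matches per kb, and KIF5A, with 5.81, were dense and not lower. Binding and translation were not analysed here.

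**Figure D5:**
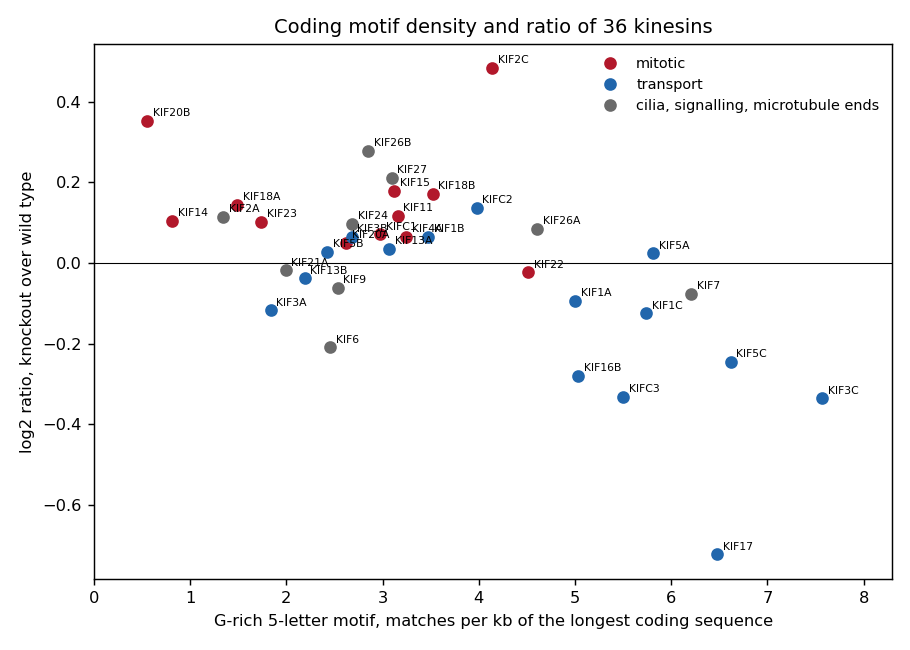
Log2 ratio of knockout over wild type against matches of the G-rich motif per kb of the longest coding sequence, 1 point per compared kinesin, coloured by class. The points below -0.2 with over 5 matches per kb, limits chosen after the values were seen, are all transport kinesins. KIF2C stands apart at 4.14 matches per kb.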

How the data were processed

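RNA of HEK293 cells was made into 6 directional libraries, per the labels' protocols, 3 of wild type and 3 of CNBP knockout. The submitters' processing notes list TopHat, Cufflinks and Cuffdiff with no version, and the build hg19. The FPKM values were computed and deposited by the authors, 1 per gene and group. The unit was inferred from those tools, and how the 3 libraries per group gave 1 value is not stated in the sources used here. A deposited column with the longest transcript per gene was not used in any value.

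Ratios were computed from both values without a pseudocount. The tests that need libraries were not run, and counts use folds of 1.5 and 1.2. Levels are FPKM, which are per length. Members, classes and partner lists were chosen with earlier results of these data known. All kinesins compared are named; of the partner lists, the 2 highest, the 2 lowest, the most abundant gene and CENPE are named by rule, and other partners were named after their values were seen. Gene order, exon overlaps and coding sequences came from GENCODE release 29, matched by Ensembl ID, on another build than hg19, and no coordinates were set beside the files. Of 19892 genes, 19225 were placed. Promoter windows came from RefSeq, matched by symbol. Calculations were tested on simulated data and were run in Python 3.11.15 with pandas 2.3.3, numpy 2.4.6 and scipy 1.17.1, with figures from matplotlib 3.10.9.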

Additional observations from a re-analysis of the deposited data

How the results depend on the processing

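The count of 1 kinesin lower by 1.5-fold, KIF17, became 0 with an FPKM of at least 5 in either group, with a pseudocount of 1, at a fold of 2 and with a mean from 5 to 120 FPKM (the last chosen after seeing the data), and 2 with no minimum, where KIF25 joined. Fewer genes are compared in the first and last of these and more in the one without a minimum; KIF17 is below 5 FPKM. The medians of both classes and of the 3 partner lists moved by less than 0.1 under every alternative run. That limit is about as large as the medians themselves, so staying within it says little about their stability. The transport median went from -0.0944 to -0.007 with a mean from 5 to 120 FPKM. The mitotic median ran from 0.1072 to 0.1262. With KIF2A in the mitotic class it was 0.1155, 12 members were above 0, and the gap to the transport median was 0.21. The gap between the class medians ran from 0.12 with a mean from 5 to 120 FPKM and 0.15 with at least 5 FPKM to 0.22 without the kinesins that share exon bases with another gene. With neighbours taken off, 5 of 36 kinesins moved by 0.1 or more (KIF13A, KIF14, KIF3C, KIFC2 and KIFC3). On the given strand alone, which leaves out the reverse form of a motif, CHR letters were found in 7 of 14 mitotic kinesins against 10.0% of compared genes, CCAAT in 4 of 14 (28.6%), near the 25.3% of compared genes, and both in 3 of 14 against 2.18%. No paired analysis was possible because the columns carry no replicate numbers, and leaving out a replicate could not be done for the same reason.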
